A study of Mus musculus with 16 samples.

Results

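Glycam1 and 8 genes of B and T lymphocytes were followed array by array in whole mouse hamstring muscle. The set was every probe of the array listed under Glycam1, Cd79b, Ltb, Cd3d, Cd3e, Cd3g, Lck or Cd2, together with the probe of Fcmr, which the array table lists under its older symbol Faim3. These were 9 of 18117 genes, and 10 of 25697 probes on the array. The set was chosen by measured intensity, because Glycam1 was bright only in muscle with both spinal cord injury and cardiotoxin, so levels in that group are given as a description, without a test.

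The mice, all female, underwent either spinal cord injury (SCI) or a sham operation. Their muscle was injected with cardiotoxin (CDTX), which kills muscle fibres, or with saline. Muscle RNA was taken on day 2 and read on 4 arrays in each of SCI+CDTX and SCI+Saline, and on 4 in each of the groups Sham+CDTX and Sham+Saline, and the series describes SCI+CDTX as the condition in which bone later forms in the muscle. The strain and age were not given in the sources used here, nor whether each array was a separate animal, so the errors measure the spread between these samples. The labels state that SCI+CDTX array 2 was left out of the authors' final analysis. Its values are shown here and marked, and the fitted differences use the other 15 arrays.

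Glycam1 encodes a secreted, heavily glycosylated mucin-like protein. It is made by high endothelial venules, the vessels through which lymphocytes enter lymph nodes, where its sugars serve as a ligand for lymphocyte adhesion. It is also made by milk-secreting mammary epithelium. The other genes mark lymphocytes: Cd79b is the beta chain of the B cell receptor signalling pair, and Fcmr is a receptor for the Fc part of IgM. Cd3d, Cd3e and Cd3g are the delta, epsilon and gamma chains that carry the T cell receptor's signal, Lck is the kinase that starts it, and Cd2 is an adhesion receptor of T and NK cells. Ltb is lymphotoxin beta, a ligand by which lymphocytes act on the stroma of lymphoid organs.

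Each probe is a 50-base oligonucleotide on beads. No run of 20 bases of any of the 10 probes occurred in another probe of the array. The array table places Glycam1 on chromosome 15, Fcmr on 1, Cd79b on 11, Ltb on 17, Cd3e and Cd3g in the same band of chromosome 9, Lck on 4 and Cd2 on 3. It gives no chromosome for Cd3d, which the RefSeq promoter table (GRCm38.p6) puts on chromosome 9 as well. The probes of Glycam1, of a B cell gene, of a T cell gene and of Ltb are shown, 5′ to 3′, as the stretches of transcript in which the values below were measured.
Glycam1 probe: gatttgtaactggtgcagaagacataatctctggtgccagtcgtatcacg
Cd79b probe (ILMN_2661523): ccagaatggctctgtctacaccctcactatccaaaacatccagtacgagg
Cd3d probe: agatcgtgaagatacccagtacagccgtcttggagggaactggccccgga
Ltb probe: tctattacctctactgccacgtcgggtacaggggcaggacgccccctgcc

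The RefSeq promoter table held 7 of the 9 genes. The stretch of 250 bases before the start of Glycam1 is shown because Glycam1 had the largest difference of all probes. Capitals mark the match to TTCNNNGAA, the core bound by STAT5, the factor through which prolactin acts in mammary epithelium. The stretch is chr15:103565082-103565331 of GRCm38.p6, read on the minus strand.
Glycam1 upstream: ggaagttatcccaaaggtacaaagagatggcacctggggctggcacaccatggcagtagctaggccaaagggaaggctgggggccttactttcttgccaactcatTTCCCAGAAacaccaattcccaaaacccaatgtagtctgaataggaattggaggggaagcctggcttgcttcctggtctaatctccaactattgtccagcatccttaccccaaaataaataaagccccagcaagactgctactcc
The same motif, searched on both strands in windows of 250 bases before to 50 after a start, was found for Glycam1, Cd3d (TTCCTAGAA) and Ltb (TTCAGAGAA). It occurred in 8.3% of all 32851 promoter windows. The RUNX core TGTGGT, found in 16.8% of all windows, was in 1 of the 2 listed Lck windows. The ETS core CCGGAA, found in 14.9%, was in none of the members' windows. These are matches of letters, and binding was not measured.

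Some properties of the arrays touch the values that follow. Mean raw intensity was 320 to 373 on the SCI+CDTX arrays, 321 to 335 on SCI+Saline, 325 to 339 on Sham+CDTX and 230 to 277 on Sham+Saline, and 11114 to 13694 probes were detected per array. A probe is called detected where its deposited detection p-value is under 0.05, which began at raw intensities of 96.6 to 112 depending on the array. All 10 genes of a skeletal muscle list were detected on all 16 arrays. The SCI arrays lay on 1 slide and the sham arrays on another, so surgery and slide cannot be told apart, while CDTX and saline were compared within a slide.

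A score built from the differences between probes of the same gene (2740 genes), which can follow RNA integrity, was 1.38 to 1.55 on the Sham+CDTX arrays and 1.12 on SCI+CDTX 2. It was -1.06 to -0.286 on the other 11 arrays. Comparisons with Sham+CDTX therefore set a high score against a low one, and its part in them was examined with the score as a covariate.

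The arrays SCI+Saline 4 and Sham+Saline 4 stood apart from their groups in genes of neutrophil granules and red cells. Camp, a granule antimicrobial peptide, read 867.6 on SCI+Saline 4 and 847.5 on Sham+Saline 4, and at most 120.4 on the other 14 arrays. Ltf, the granule iron-binding protein lactoferrin, read 652.3 and 855.3, against at most 132.7 elsewhere. Slc4a1, the red cell anion exchanger, read 564.3 and 721.3, against at most 111.9 elsewhere. Values or calls that rest most on these arrays are given with and without them.

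Glycam1 was bright on all 4 SCI+CDTX arrays and at background nearly everywhere else. Its raw intensity was 1560.9, 1655.5 on the left-out array 2, 1681.9 and 1410.5 in SCI+CDTX. In SCI+Saline it read 112.9, 96.6, 102.2 and 95.3. It read 96.6, 98.4, 98.0 and 96.0 in Sham+CDTX, and 87.7, 90.0, 85.9 and 88.9 in Sham+Saline. The SCI+CDTX arrays did not overlap with any other array, and the probe was detected outside them on SCI+Saline 1 alone. The coefficient of variation between the 4 SCI+CDTX arrays was 7.78%, and the standard error over beads, which is technical, was 3.51% to 5.07% of the signal on a single array.

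On the log2 scale of normalized intensity, Glycam1 was 10.39 ± 0.18 in SCI+CDTX (SD, n = 3). With saline it was 4.42 ± 0.37 after SCI and 4.21 ± 0.06 after sham surgery, and in Sham+CDTX it was 4.26 ± 0.03 (SD, n = 4 in each group). The 3 lower groups overlapped with one another. The difference of SCI+CDTX was 6.14 (SE 0.17) from Sham+CDTX, 5.97 (SE 0.17) from SCI+Saline and 6.18 (SE 0.17) from Sham+Saline. Because the probe was not well above background on any array of the sham groups, the fold is a bound, at least 58.8-fold against Sham+CDTX and at least 48.9-fold against Sham+Saline. Among 14763 probes that passed the detection filter, Glycam1 ranked 1 by log2 difference in each of these 3 comparisons. In the authors' deposited table of normalized intensities, which subtracts background, the mean of Glycam1 was 1349.6 for SCI+CDTX, against 0.6 for SCI+Saline, -0.8 for Sham+CDTX and -4.4 for Sham+Saline.

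**Figure D1:**
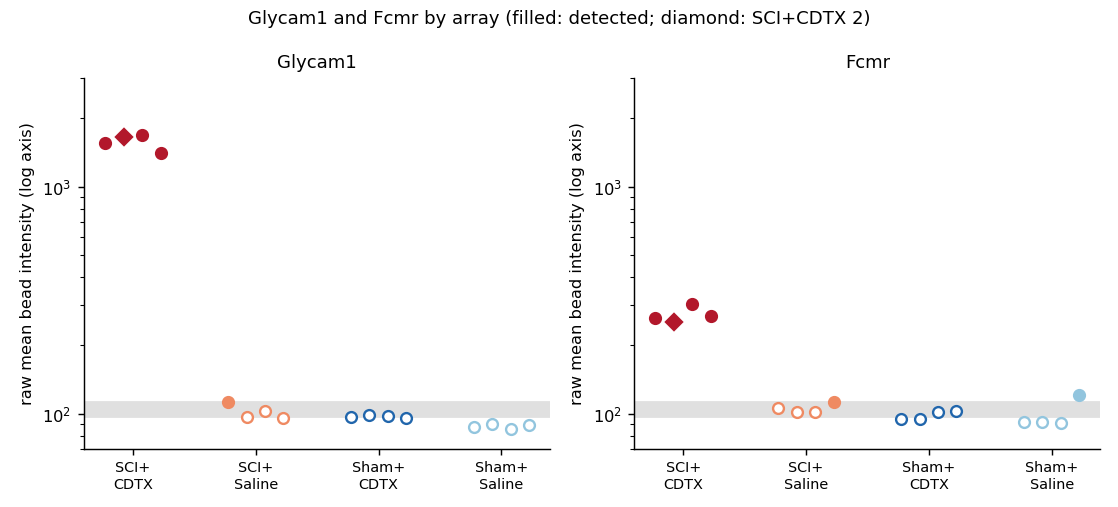
Raw mean bead intensity (log axis) of Glycam1 and Fcmr on each of the 16 arrays by group; each point is 1 array, filled points were detected, diamonds are SCI+CDTX 2, and the grey band spans the lowest detected intensity of the arrays, 96.6 to 112. Glycam1 lies between 1410.5 and 1681.9 in SCI+CDTX and at or below 112.9 elsewhere, and Fcmr between 252.4 and 305.4 in SCI+CDTX and at or below 120.2 elsewhere.

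Fcmr came next in size. Its raw intensity was 265.0, 252.4 on array 2, 305.4 and 268.9 in SCI+CDTX. In SCI+Saline it read 105.4, 101.4, 101.9 and 112.0, in Sham+CDTX 94.5, 94.6, 101.9 and 102.8, and in Sham+Saline 91.9, 91.4, 91.3 and 120.2. All SCI+CDTX arrays were above all 12 others. Outside SCI+CDTX the probe was detected on SCI+Saline 4 and Sham+Saline 4, the arrays with high Camp and Ltf, and nowhere else. The log2 difference of SCI+CDTX was 3.00 (SE 0.26) from Sham+CDTX, where the fold was at least 6.84, 2.83 (SE 0.26) from SCI+Saline and 2.60 (SE 0.26) from Sham+Saline. Without SCI+Saline 4 and Sham+Saline 4 the last difference was 2.96.

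Cd79b was measured by 2 probes, and the group mean of both was highest in SCI+CDTX. ILMN_2610822 read 189.3, 152.6 on array 2, 217.8 and 154.2 in SCI+CDTX. It read 104.2, 107.3, 100.2 and 148.8 in SCI+Saline, 119.0, 107.5, 126.4 and 125.4 in Sham+CDTX, and 92.4, 94.8, 92.6 and 137.9 in Sham+Saline. It was detected on all 4 Sham+CDTX arrays. Array 4 was the highest of both saline groups, and SCI+Saline 4 at 148.8 came close to the lowest SCI+CDTX array at 152.6. On the log2 scale SCI+Saline 4 was at 6.01 and Sham+Saline 4 at 6.31, both above SCI+CDTX 2 at 5.55 and the fitted SCI+CDTX 4 at 5.87. Sham+Saline 4 was above the fitted SCI+CDTX 1 at 6.29 as well, so the groups overlapped there.

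ILMN_2661523 read 134.8, 131.2 on array 2, 143.3 and 130.7 in SCI+CDTX. In SCI+Saline it read 92.4, 96.6, 97.0 and 111.9, in Sham+CDTX 97.1, 106.8, 103.8 and 100.7, and in Sham+Saline 91.9, 87.0, 90.5 and 120.6. Again array 4 led both saline groups. On the log2 scale Sham+Saline 4 was at 5.77, above all 4 SCI+CDTX arrays at 5.04 to 5.61, so the groups overlapped. The log2 differences of SCI+CDTX from Sham+CDTX, SCI+Saline and Sham+Saline were 1.31, 1.48 and 1.38 for ILMN_2610822 (SE 0.42 for the first) and 1.02, 1.08 and 0.76 for ILMN_2661523 (SE 0.28 for the first). Without SCI+Saline 4 and Sham+Saline 4 they were 1.31, 1.88 and 1.85 for the first probe and 1.02, 1.23 and 1.13 for the second.

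The 3 probes of Cd79b and Fcmr moved together on the arrays that stood apart. Their mean log2 level was 5.19 on SCI+Saline 4 and 5.95 on Sham+Saline 4, against 4.26 to 4.64 on the other 10 arrays outside SCI+CDTX and 5.81 to 6.61 on the SCI+CDTX arrays. All 3 were detected on both. Glycam1 read 95.3 and 88.9 on these arrays and was not detected. Vpreb3, a gene of B cell precursors, read 111.4 and 134.2 there, was detected there, and was detected on no SCI+CDTX array. The 5 T cell probes averaged 4.32 on SCI+Saline 4 and 4.60 on Sham+Saline 4, within the 4.30 to 4.72 of all arrays outside SCI+CDTX. The part of Camp, Ltf and Slc4a1 in these values was not tested beyond leaving the arrays out.

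The CD3 chains of the T cell receptor complex, Cd3d, Cd3e and Cd3g, were detected on every SCI+CDTX array and nearly nowhere else. Cd3d read 142.6, 122.7 on array 2, 154.9 and 127.5 in SCI+CDTX, 93.3 to 101.6 in SCI+Saline, 96.8 to 105.2 in Sham+CDTX and 85.4 to 97.0 in Sham+Saline. All SCI+CDTX arrays were above all others, and outside them the probe was detected on Sham+CDTX 1 alone. Cd3g read 143.2, 120.0 on array 2, 138.0 and 121.9 in SCI+CDTX, 99.5 to 100.8 in SCI+Saline, 102.1 to 108.7 in Sham+CDTX and 84.9 to 99.3 in Sham+Saline. Outside SCI+CDTX it too was detected on Sham+CDTX 1 alone.

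Cd3e read 148.9, 113.5 on array 2, 148.5 and 120.0 in SCI+CDTX. It read 105.4 to 109.0 in SCI+Saline, 99.3 to 112.4 in Sham+CDTX and at most 98.8 in Sham+Saline, with SCI+CDTX 2 at 113.5 and Sham+CDTX 1 at 112.4. On the log2 normalized scale the groups overlapped, SCI+CDTX 2 at 4.54 lying below Sham+CDTX 1 at 4.91 and SCI+Saline 1 and 3 at 4.61 and 4.65. The log2 differences of SCI+CDTX from Sham+CDTX, SCI+Saline and Sham+Saline were 1.14, 1.28 and 1.15 for Cd3d, 0.84, 1.08 and 1.02 for Cd3g, and 0.93, 0.87 and 1.01 for Cd3e. The standard errors against Sham+CDTX were 0.16, 0.15 and 0.18. None of these 3 probes was detected in either saline group, so the folds there are bounds: against SCI+Saline and Sham+Saline at least 1.77-fold and 1.67-fold for Cd3d, 1.57-fold and 1.48-fold for Cd3g, and 1.68-fold and 1.58-fold for Cd3e.

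Lck, like ILMN_2610822 of Cd79b, was also detected on all 4 Sham+CDTX arrays. It read 150.3, 159.0 on array 2, 150.9 and 147.2 in SCI+CDTX, and 109.3, 115.8, 150.5 and 120.5 in Sham+CDTX. It read 99.5 to 105.1 in SCI+Saline and 92.3 to 100.8 in Sham+Saline. Sham+CDTX 3 therefore overlapped with SCI+CDTX, and in raw intensity the other Sham+CDTX arrays lay between SCI+CDTX and the saline groups. On the log2 normalized scale Sham+Saline 1 at 5.22 lay above Sham+CDTX 1, 2 and 4 at 4.79, 4.83 and 5.00. The log2 difference of SCI+CDTX was 0.65 (SE 0.21) from Sham+CDTX, 1.37 from SCI+Saline (at least 2.04-fold, as it was not detected there) and 1.11 from Sham+Saline. That from Sham+CDTX was no longer called when any 1 of 6 arrays was left out, SCI+CDTX 1, 3 or 4 or Sham+CDTX 1, 2 or 4, and was 0.85 without Sham+CDTX 3.

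Cd2 read 125.4, 124.0 on array 2, 133.4 and 118.2 in SCI+CDTX, and 99.2 to 107.6 in SCI+Saline, 103.3 to 105.7 in Sham+CDTX and 92.5 to 109.5 in Sham+Saline. Its highest value outside SCI+CDTX was on Sham+Saline 4. On the log2 scale that array was at 5.23, above SCI+CDTX 1, 2 and 4 at 5.03, 4.85 and 4.92. The log2 differences were the smallest of the set, 0.63 from Sham+CDTX (at least 1.5-fold), 0.73 from SCI+Saline (at least 1.33-fold) and 0.45 from Sham+Saline. The last was not called in the fit, but was called without Sham+Saline 4. Ltb read 131.9, 120.7 on array 2, 148.7 and 131.8 in SCI+CDTX, and 90.8 to 108.8 on the 12 other arrays. Its log2 differences were 0.92, 1.01 and 1.11 in the same order, and it was detected on none of the Sham+Saline arrays, where the fold was at least 1.57.

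**Figure D2:**
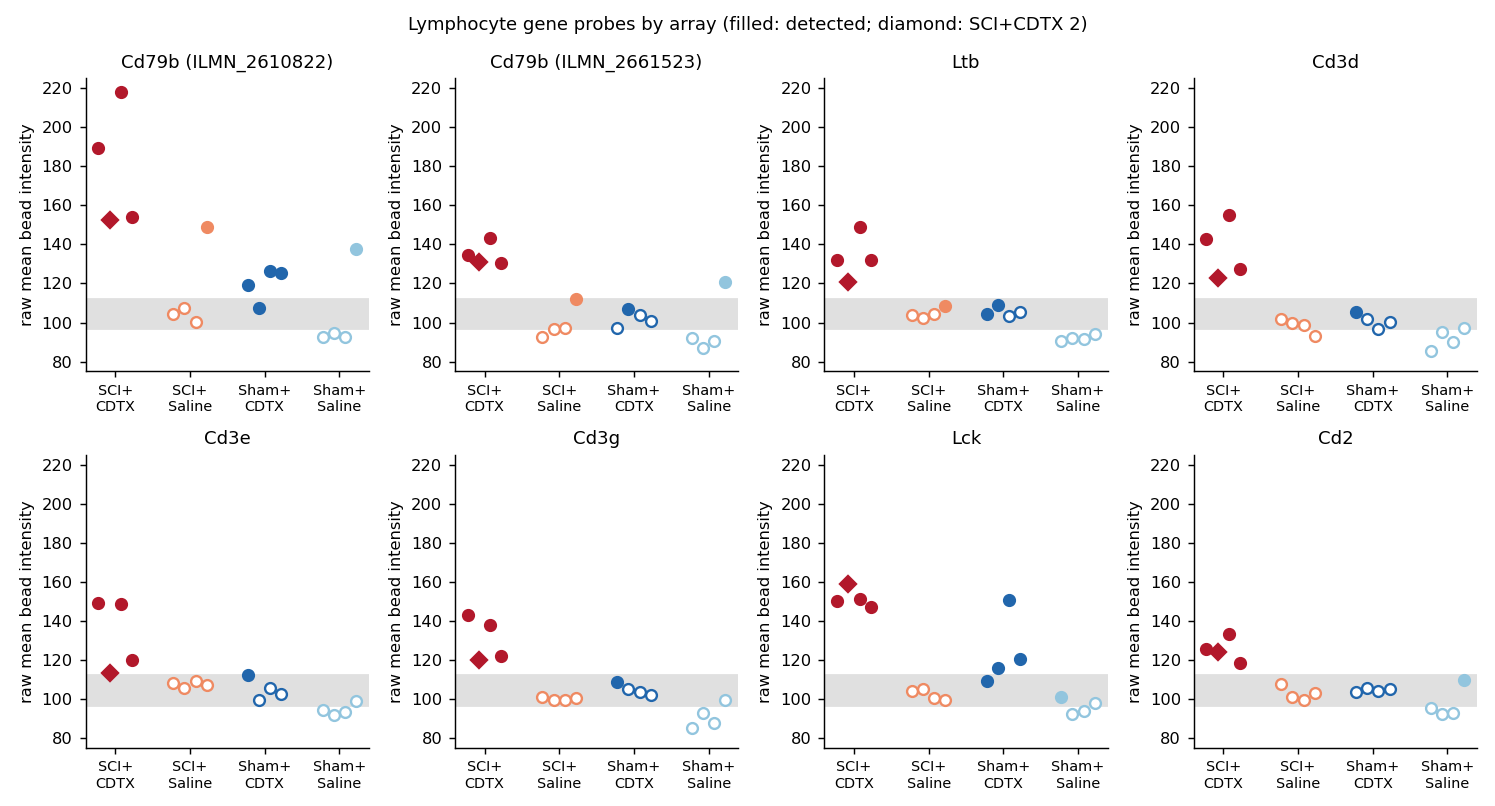
Raw mean bead intensity of the 8 probes of Cd79b, Ltb, Cd3d, Cd3e, Cd3g, Lck and Cd2 on each of the 16 arrays by group; points, fill, diamonds and grey band as for Glycam1 and Fcmr. Every probe is filled on all 4 SCI+CDTX arrays, Cd79b is also high on the fourth array of both saline groups, and Lck and ILMN_2610822 of Cd79b are filled on all 4 Sham+CDTX arrays.

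Over the set, all 10 probes were detected on each of the 4 SCI+CDTX arrays. On the SCI+Saline arrays 1, 0, 0 and 4 of the 10 were detected, on Sham+CDTX 6, 4, 2 and 2, and on Sham+Saline 1, 0, 0 and 4. All 10 passed the filter of detection on at least 3 of 15 arrays, which the 3 fitted SCI+CDTX arrays alone were enough to meet. Outside SCI+CDTX 6 of 10 (Glycam1, Fcmr, Cd3d, Cd3e, Cd3g and Cd2) were detected on fewer than 3 arrays and passed through that group. On the log2 scale 4 of 10 had all 4 SCI+CDTX arrays above the 12 others, against 126 of 14763 probes (0.853%). Of all kept probes, 0.352% were detected on all SCI+CDTX arrays and on no Sham+CDTX array, as Glycam1, Fcmr and Cd2 were. The shares for the same pattern against SCI+Saline and Sham+Saline were 1.71% and 3.83%.

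Within SCI+CDTX the arrays kept much the same order from probe to probe. Array 3 had the highest log2 value for 9 of 10 probes, and array 2, the one left out by the authors, had the lowest for 9 of 10. The 5 T cell probes averaged 5.46, 4.92, 5.64 and 5.18 on arrays 1 to 4, and the 3 B cell probes 6.22, 5.81, 6.61 and 6.16. Glycam1 was between 10.20 and 10.60. The probes share these arrays, so their order is not independent between them.

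In the fit, SCI+CDTX was called higher (adjusted p under 0.05 in limma) for 10 of 10 probes against Sham+CDTX, where 14.9% of all kept probes were called higher. It was called higher for 10 of 10 against SCI+Saline (20.4% of all) and for 9 of 10 against Sham+Saline (23% of all higher, 46.5% in either direction). Among the 9, ILMN_2661523 of Cd79b (0.76) lost its call in 10 alternatives, among them leaving out any 1 of SCI+CDTX 1, 3 or 4 or Sham+Saline 1, 2 or 3. Without SCI+CDTX 3 the count was 7. Without Sham+Saline 4 it was 10, as Cd2 was then called too. The median log2 difference of the 10 probes was 0.97, 1.18 and 1.11, and that of all kept probes 0.01, -0.05 and -0.03. These contrasts chose the genes, and their counts are a description. The 3 comparisons share the SCI+CDTX arrays.

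With the probe difference score as a covariate over all 16 arrays, 2 of 10 probes were called higher against Sham+CDTX, Glycam1 at 5.98 and Fcmr at 2.67, and 1.81% of all probes tested were called in either direction. Cd3d was then at 0.42, Cd3g at 0.25, Ltb at 0.21, Lck at 0.63, Cd2 at 0.47, Cd79b at 0.78 and 0.79, and Cd3e at -0.02. The score was fitted beside the group means, so its slope rests on the spread within groups. That spread was widest in SCI+CDTX, through the left-out array 2 (1.12, the other arrays of the group at -0.489 to -0.286). The values with the covariate therefore lean on that array, and the part of RNA integrity in them was not tested. Against SCI+Saline, where SCI+CDTX 2 alone had a high score, 10 of 10 were called higher with the covariate as well. Surgery, slide and this score all differ between SCI+CDTX and Sham+CDTX.

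CDTX in sham mice gave no call for any of the 10 probes (Sham+CDTX against Sham+Saline). Of all kept probes 48.9% were called there. But 6 of the 10 had passed the filter through SCI+CDTX and lay near background on most arrays of both groups, so nothing is read from that share. The log2 differences ran from -0.40 for Fcmr to 0.46 for Lck, with a median of 0.06. Without SCI+Saline 4 and Sham+Saline 4, ILMN_2610822 of Cd79b was called higher there, at 0.54. With the score as a covariate Ltb (1.07) and Cd3e (1.24) were called higher. Lck was called higher with median scaling (0.64) and without Sham+CDTX 1 (0.56), Sham+CDTX 2 (0.54) or Sham+Saline 1 (0.66). The interaction, the CDTX difference after SCI less the CDTX difference after sham surgery, was called higher for 9 of 10 probes (12% of all), from 0.80 to 5.93 on the log2 scale, a contrast that also holds the arrays that chose the genes. That count was 7 with all 16 arrays and 2 with the score as a covariate, where 0.294% of all probes were called in either direction.

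SCI alone is the comparison that holds none of the arrays with CDTX, and it was tested for the 9 probes other than Glycam1. Between SCI+Saline and Sham+Saline 0 of 9 were called by limma, and 0 of 9 had an unadjusted p under 0.05. Of all kept probes 29.5% were called, but 5 of the 9 (Fcmr, Cd3d, Cd3e, Cd3g and Cd2) had passed the filter through SCI+CDTX and lay near background in both groups, so nothing is read from that share. The log2 differences ran from -0.32 for ILMN_2661523 of Cd79b (SE 0.26, adjusted p = 0.394) to 0.13 for Cd3e (SE 0.16, adjusted p = 0.606). The lowest adjusted p was that of Cd2, 0.244, and the highest 0.879. Without SCI+Saline 4 and Sham+Saline 4 it was also 0 of 9. Nearly all of these arrays were at background for these probes, so a difference under the detection limit could not be seen.

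**Figure D3:**
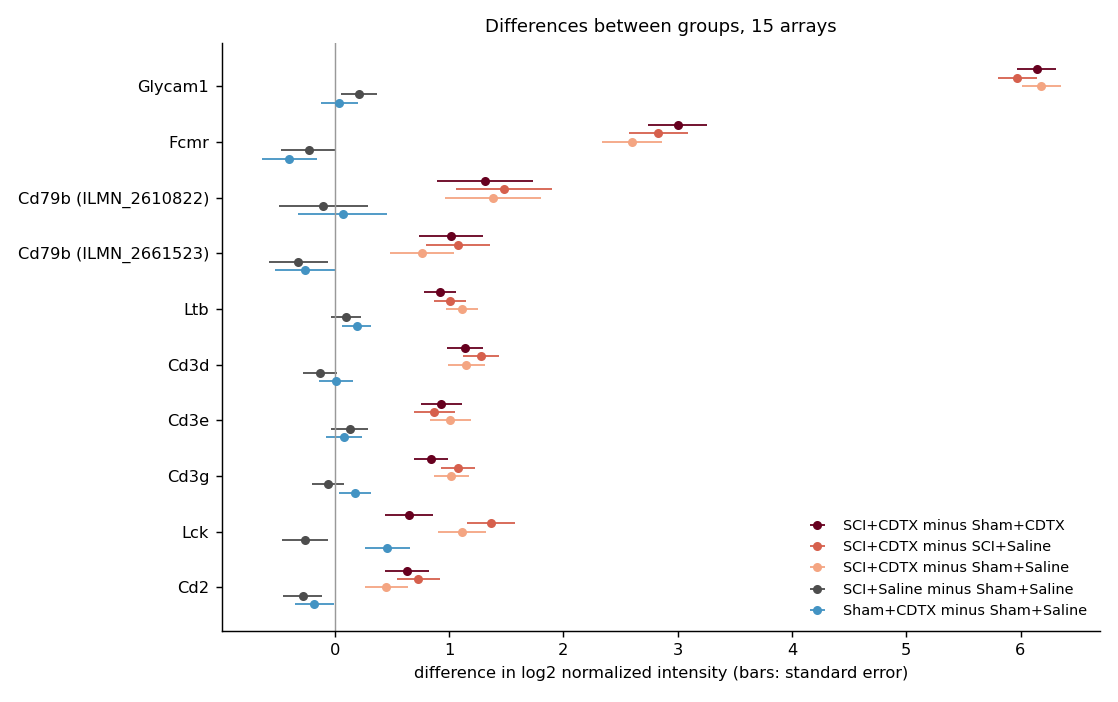
Difference in log2 normalized intensity between groups for the 10 probes (points, bars are the standard error of the fit over 15 arrays). The 3 comparisons that hold SCI+CDTX lie at 0.45 to 6.18, and the other 2, SCI+Saline minus Sham+Saline and Sham+CDTX minus Sham+Saline, at -0.40 to 0.46.

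Other T cell genes, from a list of 28 of which 26 had a probe and 14 passed the filter, did not move as one. Against Sham+CDTX 5 were higher and 3 lower, with a median log2 difference of -0.03, where 29.8% of all kept probes were called. Higher were Cd8b1, the CD8 beta chain (1.87, SE 0.21), Cd27, a co-stimulatory receptor (1.14, SE 0.16), Lat, the adaptor phosphorylated below the T cell receptor (0.89, SE 0.13), Zap70, the kinase that docks on the CD3 chains (0.56, SE 0.15), and Cd6 (0.48, SE 0.13), which was named after its value was seen. Lower were Satb1, a chromatin organiser (-1.57, SE 0.18), Prkcq, a kinase present in both T cells and muscle fibres (-1.18, SE 0.21), and Cd28 (-0.72, SE 0.22). Satb1 read 1423.5 on the left-out SCI+CDTX 2, where the score was high, and 372.5 to 559.2 on the other SCI+CDTX arrays. Satb1 and Prkcq were detected on all 16 arrays, and Thy1 (-0.63, not called), which many stromal cells carry too, read 252.0 or more on every Sham+Saline array.

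Cd8a and Cd4 were near background. Cd8a, the other chain of CD8, was detected on no array and read 93.3 to 104.8 in SCI+CDTX, while Cd8b1 was detected on all 4 SCI+CDTX arrays at 163.1 to 202.2. Cd4 was detected on 1 of 4 SCI+CDTX arrays and on no other array, and is named here after its values were seen. Cd247, another chain of the T cell receptor complex, is likewise named after its values were seen. It was detected on 3 SCI+CDTX, 2 SCI+Saline and 2 Sham+CDTX arrays. Its log2 difference of SCI+CDTX from Sham+CDTX was 0.08 (SE 0.17). Trat1, Sit1, Themis, Ctla4 and Skap1 were not detected on any array. Against SCI+Saline 7 of the 14 T cell genes were higher and 2 lower, with a median of 0.45, where 42.9% of all kept probes were called. The summed raw intensity of the list was 3920 to 5260 in SCI+CDTX, 3600 to 3880 in SCI+Saline, 4810 to 5520 in Sham+CDTX and 3490 to 4270 in Sham+Saline. With the score as a covariate 0 were higher and 0 lower against Sham+CDTX, in a fit that leans on SCI+CDTX 2.

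Other B cell genes did not follow Cd79b and Fcmr against Sham+CDTX. Of 24 genes, 19 had a probe and 12 passed the filter, of which 0 were called higher by limma (1 at an unadjusted p under 0.05) and 1 lower, with a median of 0.18. The one lower was Cd180, a receptor of B cells and myeloid cells (-0.87, SE 0.25), and its call ended without SCI+CDTX 1. Among those that did not pass, Blk, a B cell kinase, was detected on 3 of 4 SCI+CDTX arrays (107.9 to 120.3), and so was Tnfrsf13c, the BAFF receptor (108.3 to 114.6). Neither was detected on any of the other 12 arrays. Ms4a1, which encodes CD20, was detected on 1 Sham+Saline array alone, and Pax5, the B lineage transcription factor, on none. With all probes kept, 3 genes of the list were called higher. Against SCI+Saline 4 genes were higher, Cd22 (0.66), Cd37 (1.16), Cd180 (2.11) and Btk (2.04), and 0 lower. The summed raw intensity of the list was 2470 to 2610 in SCI+CDTX, 2060 to 2130 in SCI+Saline, 2430 to 2680 in Sham+CDTX and 1750 to 1990 in Sham+Saline.

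Glycam1's own pathway gave a mixed picture. Of 14 genes for selectin ligands, their binding and the enzymes that make their sugars, 11 passed the filter. Against Sham+CDTX, where 14.9% of all kept probes were called higher, 3 were higher, with a list median of 0.17: the mucin-like ligand carriers Podxl (0.87, SE 0.25) and Cd34 (0.78, SE 0.20), and Ackr1, the chemokine-binding receptor of venular endothelium (0.73, SE 0.16). Chst2, a sulfotransferase that acts on these sugars, was lower (-0.61, SE 0.17). Against SCI+Saline 7 of 11 were higher and 0 lower, Cd34 among them at 1.08, where 20.4% of all kept probes were called higher and 42.9% in either direction. Against Sham+Saline 4 were higher and 1 lower, where 23% of all kept probes were called higher. Podxl (-0.48), Cd34 (0.36) and Ackr1 (0.06) were not called there. Sham+CDTX itself was below Sham+Saline for Podxl (-1.35), Ackr1 (-0.66) and, without a call, Cd34 (-0.42).

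Chst4, the sulfotransferase of high endothelial venules, was detected on none of the SCI+CDTX arrays (98.0 to 108.7) and on 1 array of the study, SCI+Saline 3 at 110.4. Madcam1, the mucosal venule ligand, and Sele, E-selectin, were detected on none of the 16 arrays. Fut7, the fucosyltransferase for selectin ligands, was detected on none of the SCI+CDTX arrays either.

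Lymphotoxin signalling and lymph node stroma genes included several that were higher. Of 16 genes, 14 had a probe and 13 passed the filter, and against Sham+CDTX 7 were higher and 1 lower, with a median of 0.54, where 14.9% of all kept probes were called higher and 29.8% in either direction. Highest were Cxcl13, the follicular B cell chemokine (1.86, SE 0.24), Ccl19 (1.70, SE 0.14) and Ccl21a (1.35, SE 0.24), the chemokines that draw CCR7-bearing T cells, and Nfkb2, of the non-canonical NF-kB pathway (1.32, SE 0.19). The Ccl21 genes are near-identical copies, and their probes may not tell them apart. Tnfrsf11a, which encodes RANK, was lower (-0.59). Ltbr, the receptor for Ltb, was at 0.22, and Lta, the partner of Ltb in its trimer and likewise named after its values were seen, was detected on SCI+CDTX 1 alone.

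Against SCI+Saline 6 of the 13 were higher and 0 lower. Cxcl13 was at 1.57, Ccl19 at 1.21 and Ccl21a at 0.78 there, while Nfkb2 was at -0.05. SCI+Saline itself had 4 of these genes higher and 1 lower than Sham+Saline, Ccl19 at 0.38 and Nfkb2 at 1.89 among the higher. Ccr7, the receptor for Ccl19 and Ccl21, was detected on 1 SCI+CDTX and 1 SCI+Saline array.

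The genes closest to Glycam1 were sought among 10943 other genes by Pearson's correlation of log2 levels over the 16 arrays. They were Apol7c (r = 0.958), Lat (0.955), Cd8b1 (0.947), Ccl19 (0.934) and Cxcl13 (0.932). Apol7c read 115.8 to 139.5 in SCI+CDTX and 86.9 to 101.4 elsewhere, and was detected on the SCI+CDTX arrays alone, as was Lat. Ccl19 was detected on 15 of 16 arrays and read 176.3 to 199.9 in SCI+CDTX against 97.2 to 124.8 elsewhere. Cxcl13 read 206.3 to 310.1 against 91.4 to 131.9, with its highest value on SCI+CDTX 2. Among the lymphocyte probes the correlation with Glycam1 was 0.949 for Fcmr, 0.894 for Cd3d, 0.885 for Ltb and 0.866 for Cd3g. It was 0.766 for Lck, 0.761 for Cd3e, 0.715 for Cd2, and 0.647 and 0.682 for the Cd79b probes. These correlations share the arrays and the 4 groups, rest on 1 high group, and are given as a description.

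**Figure D4:**
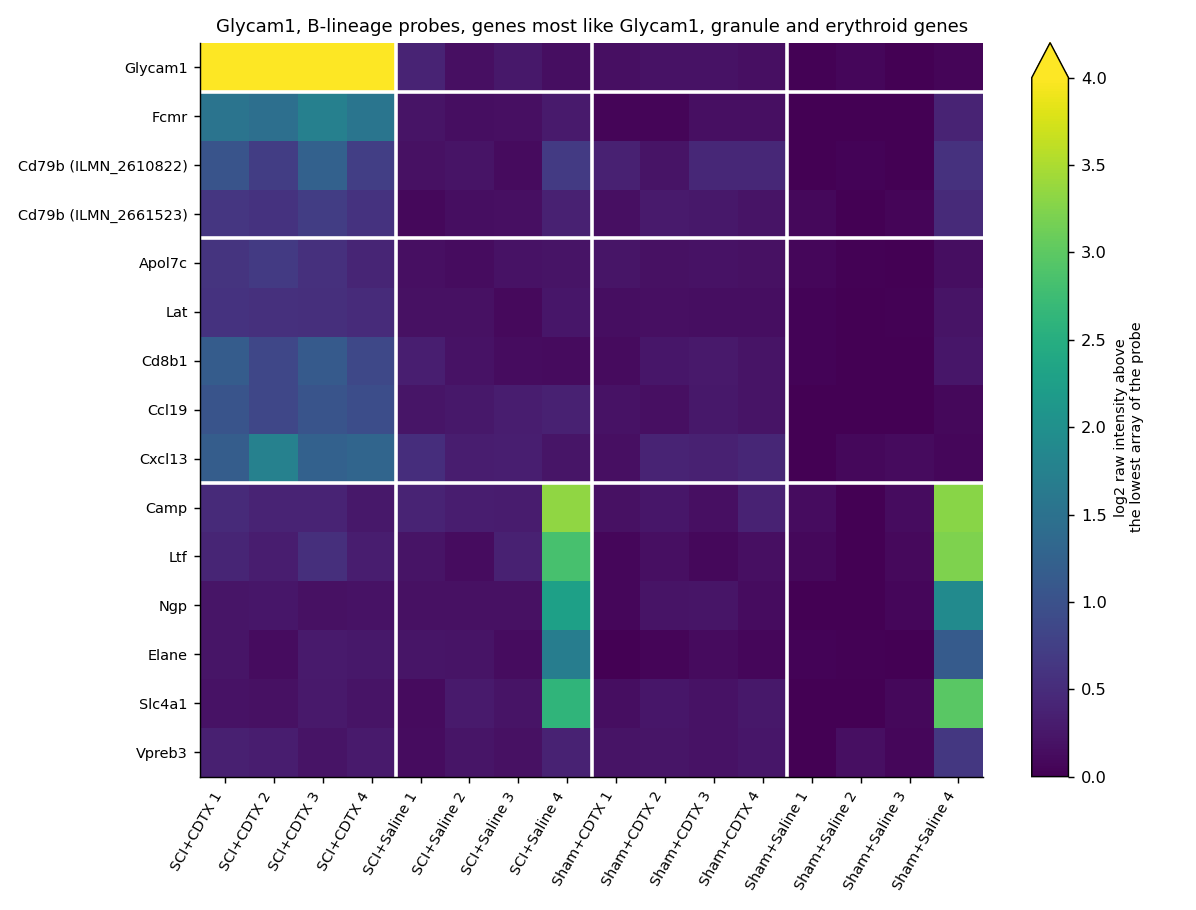
Raw intensity of each probe on each of the 16 arrays, as log2 above that probe's lowest array (colour; values above 4 share the top colour), for Glycam1, the Fcmr and Cd79b probes, the 5 genes most like Glycam1, and genes of neutrophil granules, red cells and B cell precursors. Glycam1 is bright on SCI+CDTX 1 to 4. The 5 genes most like it are higher there than on the other arrays, by much less than Glycam1. Camp, Ltf, Ngp, Elane and Slc4a1 stand out on SCI+Saline 4 and Sham+Saline 4, where Fcmr and Cd79b are raised and Glycam1 is not.

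The number of leukocytes in the muscle can bear on these values. In bulk tissue fewer cells of a type and less RNA per cell cannot be told apart. Of 10 pan-leukocyte genes 10 were higher in SCI+CDTX than in SCI+Saline, with a median log2 difference of 2.65, and 1 was higher than in Sham+CDTX, with a median of 0.32. Their summed raw intensity was 11800 to 19900 in SCI+CDTX, 14100 to 15900 in Sham+CDTX, 1850 to 6180 in SCI+Saline and 1590 to 3550 in Sham+Saline. The Sham+CDTX sums lay within the range of SCI+CDTX, and the part of leukocyte number in the members' levels was not tested. Of 11 macrophage genes 3 were higher and 1 lower against Sham+CDTX, and 11 higher against SCI+Saline.

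Other tissues that could hold these transcripts were read from the same arrays. Of 12 milk and mammary epithelium genes with a probe, Csn2, Wap, Csn1s2a, Elf5 and Btn1a1 were detected on no array, and Lalba on no SCI+CDTX array. Csn3, a casein, read 102.4, 168.5 on array 2, 116.0 and 107.5 in SCI+CDTX, and its difference from Sham+CDTX was 0.18 (SE 0.23) and not called. Krt18 (2.89) and Krt8 (1.16), keratins of simple epithelia, were higher against Sham+CDTX, but Krt18 was brighter in SCI+Saline (617.9 to 1141.7) than in SCI+CDTX (239.0 to 500.7).

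Of 10 adipocyte genes that passed the filter 6 were higher and 0 lower against Sham+CDTX, with a median of 0.74. Of all kept probes 14.9% were called higher there. Adipoq, the fat hormone adiponectin, was among the 6 at 1.07. Against SCI+Saline 2 were higher and 0 lower, with a median of 0.08, and Adipoq there read 953.9 to 2992.8, a range that contains the 1505.9 to 2298.8 of SCI+CDTX. Against Sham+Saline 1 adipocyte gene was higher and 2 lower, with a median of 0.03. Sham+CDTX had 0 of these genes higher and 7 lower than Sham+Saline, with a median of -0.83. Of 4 lymphatic endothelium genes 1 was higher against Sham+CDTX. Prox1, their defining factor, was detected on no array. Of 7 NK and cytotoxic cell genes 1 was higher, Prf1, which encodes perforin (0.95), and 1 lower, Klrd1 (-0.56). Of 5 plasma cell genes 1 was higher and 1 lower, of 8 T cell receptor signalling genes 2 and 1, and of 6 lymphocyte homing genes 0 (1 unadjusted) and 1, the last Cxcr4 (-1.44). Of 9 neutrophil genes and 4 erythroid genes 0 were called by limma in either direction, and 3 and 1 were higher at an unadjusted p under 0.05. Of 3 dendritic cell genes 2 were lower, of 2 skin genes 1 was lower, and of 10 muscle genes 1 was higher and 3 lower. Whether lymph node, fat or other tissue taken with the muscle contributed to the Glycam1 signal was not tested.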

How the data were processed

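Per the file headers, the deposited main table holds raw mean bead intensity, not normalized and without background subtraction, with a detection p-value, a standard error and a bead count for each probe and array. The authors also deposited average-normalized, background-subtracted intensity as group means, made with GenomeStudio 2011.1 per the submitters' processing notes (module 1.9.0 per the file headers). The number of per-sample columns not mapped to an array was 0.

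Here 15 arrays were corrected with neqc (normal-exponential model, offset 16, quantile normalization) using R 4.3.3 and its package limma 3.58.1, and array 2 of SCI+CDTX was mapped to the same quantiles. The filter asked for detection (p under 0.05) on 3 or more of these arrays. lmFit and eBayes were fitted to 4 group means over all kept probes, with Benjamini-Hochberg adjustment, and differences are on the log2 scale of the deposited intensity so normalized, and the fit was checked on simulated data. The offset understates differences of dim probes. Lists use the brightest kept probe per gene, matched by symbol updated through Entrez identifiers. All genes of lists with at most 12 kept genes could be named, and the 4 highest and 4 lowest of longer ones, with any called lower or never detected. The genome build of the array table is not given in the sources used here, and mean beads per probe were 33.3 to 38.9. The members and lists were chosen with earlier results of these data known. The alternatives were other arrays, normalizations, filters and fits, and each array left out. Results for some list genes are not reported here.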

Additional observations from a re-analysis of the deposited data

Results flagged for a closer look

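Values on single arrays that lay far from the rest of their group, by Dixon's criterion for 4 values, were found in 7 of 40 groups of 4 arrays. Chance flags about 1 in 20 of independent groups with normal spread. These groups share arrays and many lay near background, so the count is not read against that rate. On the log2 scale the flagged values were Glycam1 on SCI+Saline 1 (4.97), Fcmr on Sham+Saline 4 (5.76), and Cd79b on Sham+Saline 4 by both probes (6.31 for ILMN_2610822 and 5.77 for ILMN_2661523). The others were ILMN_2661523 on SCI+Saline 4 (4.78), ILMN_2610822 on Sham+CDTX 2, the lowest of its group (4.55), and Lck on Sham+Saline 1 (5.22). Of these, 4 are B cell probes on the arrays with high Camp, Ltf and Slc4a1.

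SCI+CDTX 2, the array left out of the fit, carried a raw intensity above all 12 arrays of the other groups for each of the 10 probes. Its log2 levels were 10.20 for Glycam1, 6.83 for Fcmr, 5.55 and 5.04 for Cd79b, 4.76 for Ltb, 4.82 for Cd3d, 4.54 for Cd3e, 4.74 for Cd3g, 5.67 for Lck and 4.85 for Cd2. On that scale it was below an array of another group for 6 of 10 probes, both of Cd79b, Cd3e, Cd3g, Lck and Cd2. For both Cd79b probes, Lck and Cd2, fitted SCI+CDTX arrays were below such an array too. The margin of SCI+CDTX 2 in raw intensity was widest for Glycam1 (1655.5 against at most 112.9 elsewhere) and narrowest for Cd3e (113.5 against 112.4).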

How the results depend on the processing

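Between SCI+Saline and Sham+Saline 0 of 9 probes were called under every alternative run. Against Sham+CDTX the score covariate gave 0 higher and 0 lower T cell genes and 0 lower B cell genes, and turned Cd3e to -0.02 (interaction -0.26). That fit leans on SCI+CDTX 2, and the cause was not tested. Higher B cell genes against Sham+CDTX (0 as reported) numbered 3 with all 16 arrays, with or without array weights, and 3 with no detection filter. They numbered 1 with each slide normalized separately, with only the groups compared, or with the replicate number as a block. Lower B cell genes ran from 0 to 1 when single arrays were left out, 0 without SCI+CDTX 1. Against Sham+CDTX the T cell counts otherwise stayed within 1.5 times. Single-probe calls were lost most often for ILMN_2661523 of Cd79b against Sham+Saline (10 alternatives) and, against Sham+CDTX, for Lck (9) and for ILMN_2610822 of Cd79b (7, among them without SCI+CDTX 1, SCI+CDTX 3 or Sham+CDTX 2). Without SCI+CDTX 3 that probe was also not called against SCI+Saline or Sham+Saline, nor Cd2 against Sham+CDTX. Leaving out both SCI+Saline 4 and Sham+Saline 4, an alternative chosen after seeing the data, changed no list count by over 1.5 times. The replicate numbers did not pair the arrays (median correlation -0.02 over 21 pairs of equal number), and the block ended the call of Lck against Sham+CDTX. Most values outside SCI+CDTX lay near the detection limit, which bounds what could be seen.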
